A study of Mus musculus with 4 samples.

Results

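The data compared haematopoietic stem cells (HSCs) sorted as Lin- cKit+ Sca1+ CD48- CD150+ cells from mice that had lost Gfi1b with the same cells from control mice. All genes with at least 10 counts in 1 of the 2 libraries were taken, which gave 15910 of the 38293 genes listed. The pair makes up 2 of the 4 RNA-seq samples of the study, and the other 2 samples are a WT and a KO library of CD41low CD9low HSCs. The KO mice carried Rosa-Cre and Gfi1b fl/fl, and tamoxifen was given to them 2 weeks before the bone marrow was taken. Per the methods, the controls carried Rosa-Cre with Gfi1b wt/fl and also received tamoxifen, so that 1 allele could still be deleted in them, whereas the series design describes flox/flox mice with or without the Cre. The background is labelled C57Bl6, and the age of the mice is not given in the sources used here. The Rosa locus is active in nearly all cells, so deletion was not limited to stem cells. Marrow of tibiae, femora and humeri was pooled over the mice of a genotype, with more WT than KO mice, before lineage depletion, and each library is therefore 1 pool. The sample titles read Gfi1 where the genotype label reads Gfi1b. Genes described beyond a fixed ranking were chosen after their values were seen.

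Gfi1b is a zinc-finger protein that represses transcription by bringing the histone demethylase LSD1 and CoREST to DNA. It is needed for megakaryocytes, the platelet-forming cells, and for red cell precursors, and it restrains the expansion of HSCs. It represses its own gene and that of its paralog Gfi1.

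The promoters of Gfi1b, Gfi1 and Plagl1, the gene with the highest ratio in the KO library, are shown because these genes had large KO/WT ratios, and those of Plk2, Dusp1 and Btg2 because they are early-response genes with a full cAMP response element (CRE). Each line holds the 250 bases before the start of transcription, 5′ to 3′ on the gene's strand, from RefSeq on GRCm38.p6. Capitals mark the core letters AATC of the Gfi1b recognition sequence, or GATT where it lies on the other strand, in the first 3 lines, and the CRE letters TGACGTCA in the last 3.
Gfi1b, chr2:28621983-28622232, minus strand: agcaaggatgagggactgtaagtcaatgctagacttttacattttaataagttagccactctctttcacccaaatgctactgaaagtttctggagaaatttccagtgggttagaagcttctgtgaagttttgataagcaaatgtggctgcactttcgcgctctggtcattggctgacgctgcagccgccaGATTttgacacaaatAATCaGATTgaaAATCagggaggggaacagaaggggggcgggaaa
Gfi1, chr5:107725806-107726055, minus strand: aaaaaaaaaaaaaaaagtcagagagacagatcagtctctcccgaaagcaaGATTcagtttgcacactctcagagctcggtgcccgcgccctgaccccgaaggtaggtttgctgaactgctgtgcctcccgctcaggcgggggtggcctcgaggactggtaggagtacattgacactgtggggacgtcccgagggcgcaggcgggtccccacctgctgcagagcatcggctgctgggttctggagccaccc
Plagl1, chr10:13090582-13090831, plus strand: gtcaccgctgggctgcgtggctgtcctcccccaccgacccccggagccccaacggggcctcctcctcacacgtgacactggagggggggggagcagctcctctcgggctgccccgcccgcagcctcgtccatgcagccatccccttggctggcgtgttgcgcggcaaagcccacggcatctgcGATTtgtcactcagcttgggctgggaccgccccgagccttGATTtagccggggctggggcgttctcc
Plk2, chr13:110394794-110395043, plus strand: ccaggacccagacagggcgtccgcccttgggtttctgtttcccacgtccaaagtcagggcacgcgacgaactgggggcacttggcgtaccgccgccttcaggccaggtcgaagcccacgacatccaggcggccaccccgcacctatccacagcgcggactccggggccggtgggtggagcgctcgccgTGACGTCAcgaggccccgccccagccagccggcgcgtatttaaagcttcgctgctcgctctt
Dusp1, chr17:26508473-26508722, minus strand: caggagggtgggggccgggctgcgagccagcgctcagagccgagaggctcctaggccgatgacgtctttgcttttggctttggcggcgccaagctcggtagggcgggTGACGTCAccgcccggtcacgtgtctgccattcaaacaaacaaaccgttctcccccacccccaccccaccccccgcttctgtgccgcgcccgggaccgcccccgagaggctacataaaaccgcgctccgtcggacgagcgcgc
Btg2, chr1:134079156-134079405, minus strand: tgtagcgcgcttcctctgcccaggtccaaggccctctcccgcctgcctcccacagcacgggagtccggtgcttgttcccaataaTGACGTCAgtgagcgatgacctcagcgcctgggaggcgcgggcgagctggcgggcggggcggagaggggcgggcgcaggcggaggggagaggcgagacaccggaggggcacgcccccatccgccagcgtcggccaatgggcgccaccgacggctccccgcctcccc
The Gfi1b window held 4 of these core matches, while the Gfi1 window shown held 1, the window of a second Gfi1 start held 0 and the Plagl1 window held 2. The core is short, and 69.0% of 32851 windows of this length held at least 1 match on either strand. The longer form AATCNCNGC (on the other strand GCNGNGATT) was in 3.17% of all windows, and in none of the Gfi1b, Gfi1 and Plagl1 lines shown. Of the 46 windows of early-response genes, 52.2% held the core and 4.35% the longer form. A CRE was in 1.55% of all windows and in 8.70% of the 46 windows of early-response genes, namely those of Btg2, Plk2, Maff and Dusp1. The AP-1 letters TGANTCA were in 6.75% of all windows and in 2.17% of the early-response windows. These matches describe the letters and do not show binding.

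The 2 libraries were deep, with 50781007 counts on genes in WT and 41690708 in KO, and 3 counts corresponded to 0.0591 and 0.0720 CPM (counts per 1000000 on genes). After division by size factors of 1.11 and 0.900 (normalised counts), the KO/WT ratio exceeded 1.5 in 2248 genes (14.1%) and lay under 0.6 in 1639 (10.3%). These cutoffs are those of the study. The genes past them are called up and down here. With 1 library per genotype there is no replicate check and no test, and the 95% intervals given with the ratios (Clopper-Pearson) cover counting error only, in reads that are not independent molecules. The interval lay wholly above 1.5 for 1244 genes (55.3% of those up) and wholly below 0.6 for 618 genes (37.7% of those down). Among the 8073 genes with a mean of at least 1000 normalised counts, 6.12% were up and 1.56% down. For every 100 counts on genes, a further 80.0 reads in WT and 105 in KO fell on no gene.

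**Figure D1:**
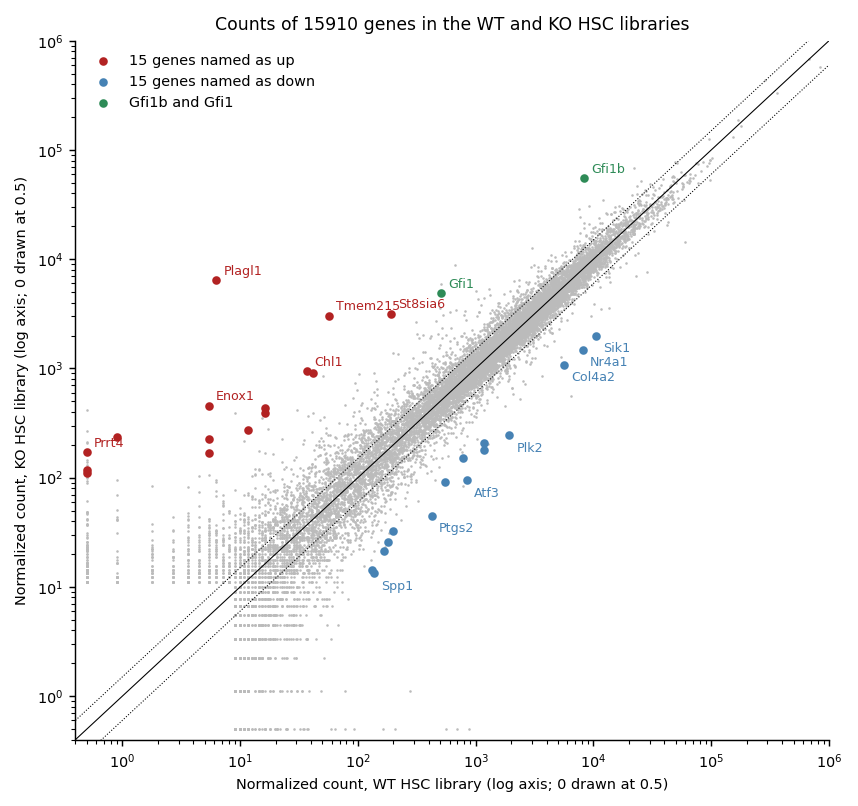
Normalised counts of the 15910 genes in the WT (x axis) and KO (y axis) HSC library, both on log axes with 0 drawn at 0.5, with the line of equality (solid) and the cutoffs of 1.5 and 0.6 (dotted). Gfi1b lies at 8332 and 55448 and Plagl1 at 6.3 and 6456, far above the line, while Sik1 at 10580 and 1986 and Nr4a1 at 8074 and 1485 lie below it.

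Long genes had higher KO/WT ratios than short genes. The median log2 ratio climbed from -0.20 in the tenth of genes with the shortest summed exons (70 to 1100 bases) to 0.23 in the tenth with the longest (9441 to 123179 bases). In the CD41low CD9low pair, the corresponding medians lay between -0.03 and 0.03. A running median over length was therefore subtracted to give a length-corrected ratio, after which 2216 of 15676 genes (14.1%) were up and 1460 (9.31%) down. Without and with this correction, 1965 genes were up and 1410 down in both. The cause of the trend was not tested, and corrected values are given below for named genes that fall on the other side of a cutoff with them and for many of the lists.

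**Figure D2:**
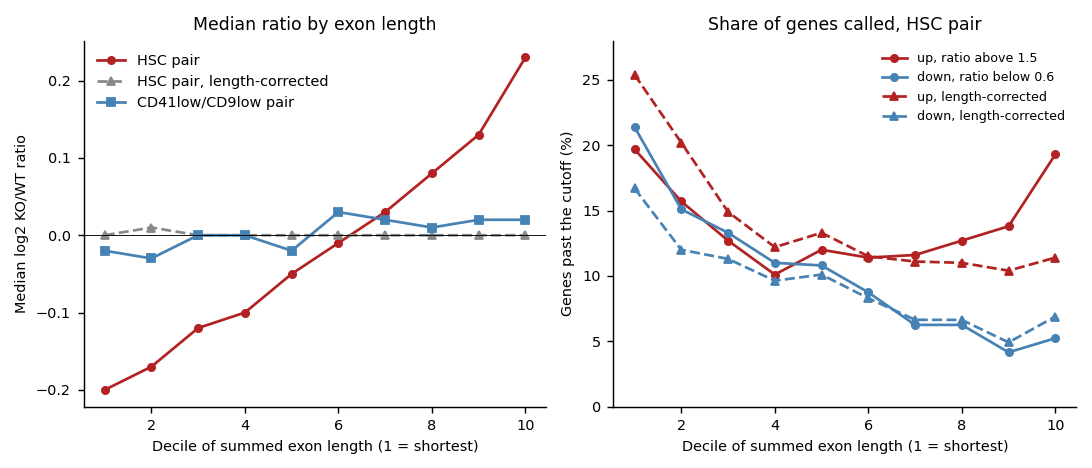
Left, median log2 KO/WT ratio by decile of summed exon length for the HSC pair, the HSC pair after length correction and the CD41low CD9low pair. Right, percent of genes up and down in the HSC pair by the same deciles. The HSC medians run from -0.20 to 0.23, and the share of genes down goes from 21.4% in the shortest to 5.23% in the longest decile.

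Gfi1b transcript counts were higher, not lower, in the library labelled KO. Gfi1b had 9256 counts in WT and 49910 in KO, a ratio of 6.66 (6.51 to 6.81). On the TPM scale, which divides by exon length and library total, its level was 331 in WT, the 318th highest of 36429 genes, and 2242 in KO, the 23rd highest. The counts cover the whole gene and do not separate the floxed exons from the rest, so they do not check the deletion. The study itself reports the deletion in HSCs, based on missing expression of the floxed exons. Gfi1b had 611 and 9741 counts in the CD41low CD9low pair, a ratio of 10.6.

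Gfi1, the paralog, had 567 counts in WT and 4394 in KO, a ratio of 9.56 (8.76 to 10.5), with 413 and 2643 counts (4.27) in the CD41low CD9low pair. Their partners in repression lay between the cutoffs, from Hdac2 at 0.910 to Gse1 at 1.47. Of the 15 genes of the LSD1-CoREST list, Gfi1 was the only 1 up and 0 were down, and the list median was 0.09 on the log2 scale against 0.00 for all genes. Around Gfi1b, 14 other genes with at least 100 counts lay within 1000000 bases, and their ratios ran from 0.953 to 1.49.

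The marker genes of the sort stayed between the cutoffs. Kit, the stem cell factor receptor, had a ratio of 1.06, Slamf1 (CD150) 1.30, Cd48 1.31 (just past the upper cutoff after length correction) and Ly6a (Sca1) 0.715. Among surface markers outside this sort, Cd34 had 0.738, Flt3 1.10, Itga2b (CD41) 1.28, Cd9 1.01 and Ptprc (CD45) 0.981. Procr, the protein C receptor of HSCs, went from 2319 to 4128 counts, a ratio of 2.20 (2.09 to 2.31). Of these 10 surface markers, 1 was thus up (2 after correction) and 0 were down. The cells were described as CD41+ CD9+ in the study, though the sort listed for this library had no CD41 or CD9 step, and both genes were well expressed in both libraries.

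Plagl1 showed the widest gap of all protein-coding genes ranked. This imprinted zinc-finger gene on chromosome 10 had 7 counts in WT and 5811 in KO, a ratio of 1025 (497 to 2550), and its level was 0.0587 TPM in WT and 61.1 TPM in KO. In the CD41low CD9low pair it had 5 and 3 counts, so the level of the KO library was seen in HSCs and not in that pair. Of 10 other genes with at least 100 counts within 1000000 bases, 2 were up, Phactr2 at 2.13 and Stx11 at 1.66, and the lowest ratio was 0.696.

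Each of the other 14 genes named as up had at most 211 counts in WT. Tmem215, a transmembrane protein gene, went from 63 to 2733 counts (53.5, interval 41.7 to 69.9). Enox1, an electron-transfer oxidase, had 6 and 410 counts (84.3, interval 38.4 to 231), and Ctnna3, an alpha-catenin of cell junctions, had 1 and 213 counts (263, interval 46.7 to 10432). Chl1, a neural adhesion molecule, had 41 and 853 counts, Diras2, a small GTPase, 46 and 810, and Cacna1e, a voltage-gated calcium channel subunit, 18 and 354. These 3 genes had ratios of 25.7, 21.7 and 24.3, and all had at most 5 counts in either CD41low CD9low library.

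St8sia6, a sialyltransferase, had the most KO counts of this group after Plagl1, with 211 counts in WT and 2842 in KO (16.6, interval 14.4 to 19.2). It also differed in the CD41low CD9low pair, with 1 and 241 counts. Car8, a carbonic anhydrase-like protein, had 18 and 392 counts (26.9), and 3 and 35 in that pair (7.78). Adgrg6, an adhesion G protein-coupled receptor, had 6 and 151 counts, Cpvl, a carboxypeptidase, 6 and 203, and Colec11, a collectin, 13 and 248. The WT library had 0 counts of Prrt4, Cdhr1 and Pi15, which had 154, 106 and 100 counts in KO. Taking the floor of 3 counts in the WT library, Prrt4 was at least 63.4-fold higher in KO, Cdhr1, a cadherin of photoreceptors, at least 43.6-fold and Pi15, a protease inhibitor, at least 41.1-fold.

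**Figure D3:**
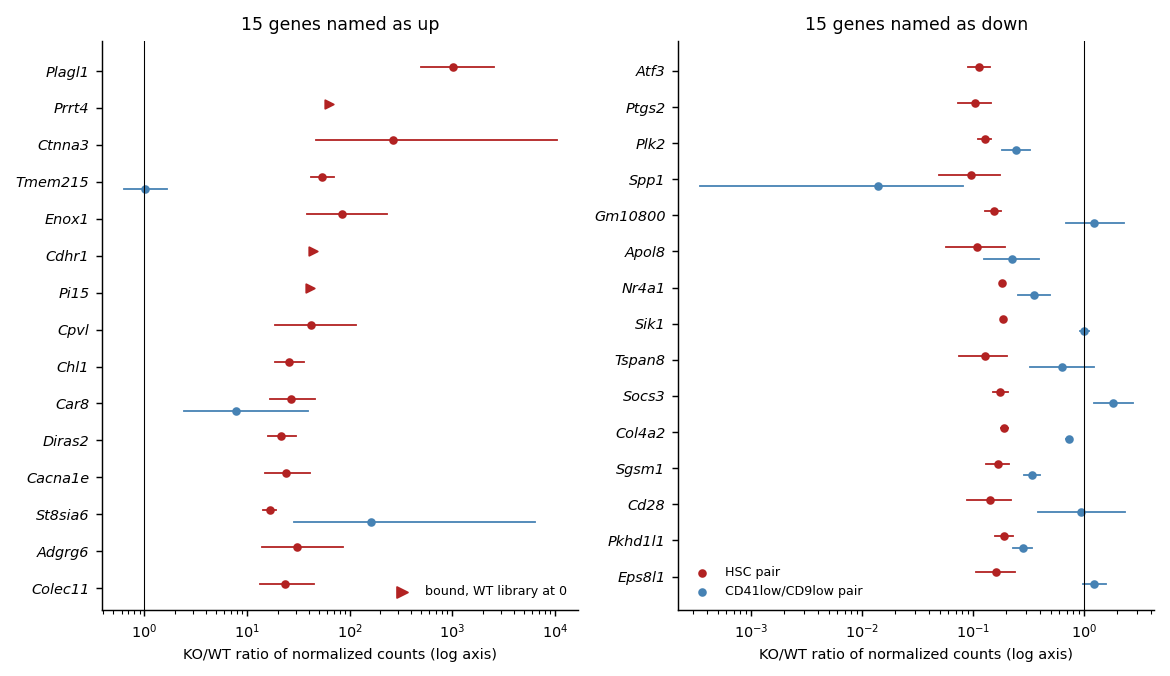
KO/WT ratio (log axis) of the 15 up and the 15 down genes named by rank, with the 95% counting interval (lines), for the HSC pair (red) and the CD41low CD9low pair (blue), the latter drawn where it could be computed. Plagl1 lies at 1025 and St8sia6 at 16.6, arrowheads mark bounds for genes at 0 in WT, and on the right Atf3 lies at 0.113 and Sik1 at 0.188, with Sik1 at 1.0 in the CD41low CD9low pair.

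Of the 15 genes named as down, 6 belonged to the immediate-early list described below. Atf3, a stress-induced transcription factor, had 930 counts in WT and 85 in KO (0.113, interval 0.0893 to 0.141). Plk2, a polo-like kinase, had 2133 and 220 (0.127), Nr4a1, an orphan nuclear receptor, 8970 and 1337 (0.184), and Sik1, a salt-inducible kinase, 11754 and 1788 (0.188). Socs3, an inhibitor of cytokine signalling, had 1304 and 186 counts (0.176). Ptgs2, the inducible cyclooxygenase, had 472 and 40 counts (0.105).

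The other 9 were not on that list. Col4a2, a basement membrane collagen, had 6277 and 977 counts (0.192, interval 0.179 to 0.206), and Spp1 (osteopontin) had 153 and 12 (0.0968). Tspan8, a tetraspanin, had 185 and 19 counts (0.127), and Cd28, a co-stimulatory receptor of T cells, had 200 and 23 (0.142). The remaining 5 were Sgsm1, Pkhd1l1, Apol8, Eps8l1 and the predicted gene Gm10800, with ratios of 0.168, 0.192, 0.109, 0.161 and 0.153. In the CD41low CD9low pair Spp1 was also down, with 48 counts in WT and 1 in KO. Apol8 (0.226), Pkhd1l1 (0.280) and Sgsm1 (0.340) were down there too. The ratios of Col4a2 (0.727), Tspan8 (0.635), Cd28 (0.933), Eps8l1 (1.24) and Gm10800 (1.23) lay between the cutoffs in that pair.

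The immediate-early list was the list with the lowest median. Immediate-early genes are switched on within minutes of a stimulus without new protein synthesis, and they also respond to cell handling. Of the 47 members measured, 38 were down and 1 was up, against 10.3% and 14.1% of all genes, and the median log2 ratio was -1.34. After length correction 35 were down and the median was -1.17. Summed over the list, the level was 7379 CPM in WT and 2808 CPM in KO. In all, 44 members lay below 1 and 3 above it.

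The AP-1 genes were among the most abundant transcripts of these cells. Fos went from 67167 to 13042 counts (0.240, interval 0.235 to 0.244), which was the 30th highest level in WT (1871 TPM) and the 190th in KO (456 TPM). Jun went from 47669 to 19924 counts (0.516, interval 0.507 to 0.524). Fosb, from 31610 to 6877 counts (0.269), and Junb, from 14992 to 3217 (0.265), were also down, while Fosl2, a later-acting member, was at 0.698. Jund, with 16126 and 7434 counts, had a ratio of 0.569 and a corrected ratio of 0.640.

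The same direction held across the other classes of early genes. The zinc-finger factors Klf6 (0.305), Klf4 (0.254) and Klf2 (0.505) and the Egr factors Egr1 (0.317), Egr2 (0.240) and Egr3 (0.262) were down, as was Nr4a2 (0.232). Zfp36, which destabilises cytokine mRNAs, went from 12997 to 3179 counts (0.302, interval 0.290 to 0.314). Among the exceptions, Btg1 had 1.03, Hes1 1.08, and Gadd45g, a growth-arrest gene, was up at 1.62 (1.43 to 1.85), from 424 to 558 counts. In the CD41low CD9low pair, where 13.5% of all genes were up and 12.0% down, 6 of 40 members measured were up and 6 down, with a median of -0.14. Fos had 272 and 328 counts there, a ratio of 0.804, in libraries of 12732079 and 19123185 counts on genes. The WT HSC library had 67167 Fos counts among 50781007. Summed over the list, the level in the CD41low CD9low pair was 1567 CPM in WT and 1495 CPM in KO. Both sums lay below the 2808 CPM of the KO HSC library and the 7379 CPM of the WT HSC library. The cause of these differences in level between the libraries was not tested.

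**Figure D4:**
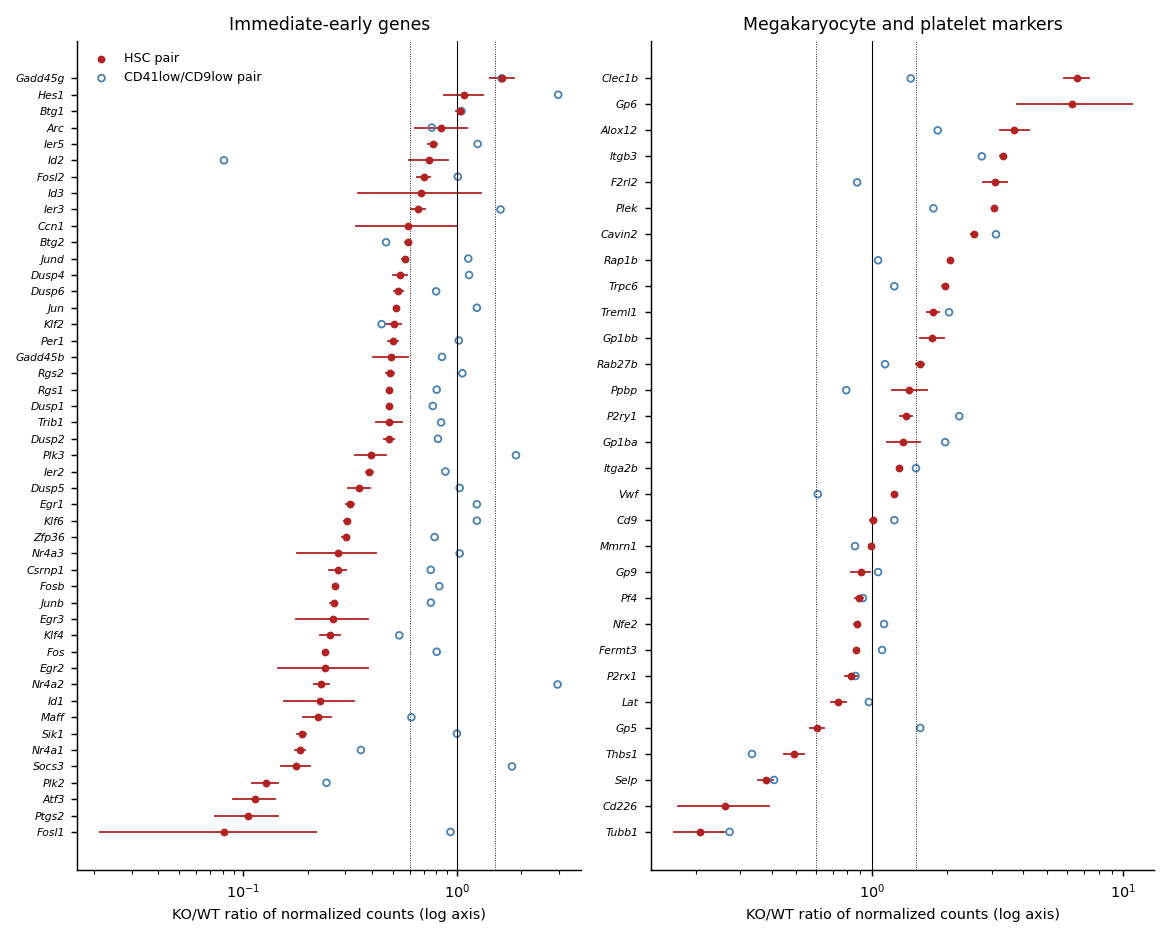
KO/WT ratio (log axis) of each measured member of the immediate-early list (left) and of members of the megakaryocyte and platelet list (right), with 95% counting intervals for the HSC pair (filled red) and the CD41low CD9low pair beside it (open blue), and the cutoffs dotted. On the left, 44 of 47 HSC points lie below 1, whereas on the right the points spread from Tubb1 at 0.208 to Clec1b at 6.53.

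Feedback inhibitors of MAP kinase signalling, which overlap this list through the Dusp phosphatases, were lower as well. Of 15 members, 8 were down (53.3%, against 10.3% of all genes) and 1 up (6.67%, against 14.1%). The median was -0.89 (-0.76 corrected). Dusp1, which removes the activating phosphates of MAP kinases, went from 26316 to 10273 counts (0.482, interval 0.471 to 0.493), and Dusp5 from 1318 to 372 (0.348). Spry1 (0.415) and Spry4 (0.440), Sprouty inhibitors of receptor signalling, were down and Spry2 was at 0.931. The most abundant non-Dusp member, Spred1, was at 1.03, and Dusp7 was up at 1.55 (1.38 to 1.74).

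Of 21 NF-kB subunits and targets, 6 were down (28.6%, against 10.3% of all genes) and 2 up, with a median of -0.46. Nfkbiz, an inducible co-regulator, went from 5133 to 1594 counts (0.383), and Il1b, an inflammatory cytokine, from 120 to 28 (0.288, interval 0.184 to 0.437). Ccl4 (0.367), Ccl3 (0.514, corrected 0.604), Bcl3 (0.542) and Cxcl2, with 30 and 1 counts, were the other 4 down, and Tnfaip3, an inhibitor of the pathway, was at 0.605 (corrected 0.565). Of the 5 subunits, Nfkb1 (0.960), Rela (1.0), Relb (0.914) and Nfkb2 (1.14) lay between the cutoffs, as did the inhibitor Nfkbia (1.14), and Rel was up at 1.81. Il6 was up too, from 26 to 107 counts (5.08, interval 3.28 to 8.13).

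Stress genes were called in both directions. In the list of the unfolded protein and integrated stress response, 4 of 24 members were down (16.7%) and 2 up (8.33%), with a median of -0.08. Of all genes, 10.3% were down and 14.1% up. Trib3 (461 to 104 counts, 0.278), Atf4 (0.501), Ppp1r15a (0.502) and Ddit4 (0.513) were down. Sesn2 (1.52) and Chac1, with 0 and 12 counts, were up, and Ddit3 (0.914), Asns (0.898) and Atf5 (1.24), likewise targets of the integrated stress response, stayed between the cutoffs. The abundant chaperones of the endoplasmic reticulum, Canx at 0.968 and Hspa5 at 0.793, stayed between the cutoffs. Of 16 heat-shock genes 0 were down, and the inducible Hspa1a (592 to 1172 counts, 2.44, interval 2.21 to 2.70) and Hspa1b (2.04) were up. These near-identical copies can share reads, so their split is uncertain. Of 20 p53 targets, Zmat3 (2.48) and Eda2r (1.94) were up and Perp (0.202) was down, with a median of -0.02. Nfe2l2, the factor that drives antioxidant genes, was up at 1.59 while 18 of the 23 members of that list lay below 1, with 2 down (Slc7a11 at 0.353 and Me1 at 0.572) and a median of -0.36.

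The tubulin genes had lower counts in KO. All 13 measured members lay below 1 and 8 were below 0.6 (61.5%, against 10.3% of all genes), or 7 after length correction. The median was -0.89 (-0.75 corrected). Tuba8 went from 2665 to 473 counts (0.219, interval 0.198 to 0.242), and Tubb1, the platelet form, from 505 to 85 (0.208, interval 0.163 to 0.262). Tubb4b (0.541), with 14238 and 6236 counts, and Tuba1c (0.491) were down, while Tubb5, the most abundant, was at 0.877. The CD41low CD9low pair had 3 of 13 down and a median of -0.16. Of 31 actin and adhesion genes 0 were down and 7 were up (22.6%, against 14.1% of all genes), or 4 after correction. Actb was at 0.850, and Lpp, a focal adhesion protein, was highest at 2.53 (2.43 to 2.63, corrected 2.01).

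Most mitotic genes lay below 1 without passing the cutoff. Of 30 members 29 lay below 1, from Cenpa at 0.497 to Mki67 at 0.958, and Ect2 was at 1.05. Cenpa, Cdk1 (0.594) and Kif20a (0.597, corrected 0.609) were down, 4 members were down after correction, and the median was -0.51 (-0.50 corrected). Top2a, a DNA topoisomerase of dividing cells, went from 38788 to 22892 counts (0.728). DNA replication genes gave 37 of 40 below 1 with a median of -0.28, and Gins1 alone was down (0.575, corrected 0.658). The median of both lists was -0.36 in the CD41low CD9low pair. Of 34 kinesins, 2 were down and 4 up, with a median of -0.04.

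The regulators of the G1 phase included changes in both directions. Cdk6, which releases HSCs into the cycle, went from 18306 to 27580 counts (1.86, interval 1.83 to 1.89, corrected 1.57), whereas Cdkn1c (p57), a cycle inhibitor of dormant HSCs, went from 813 to 284 (0.431, interval 0.375 to 0.494). Ccne1 was down at 0.578 (corrected 0.619), and Rb1 was at 1.51 (corrected 1.45). In all, 2 of 21 members were up and 2 down (9.52% each, against 14.1% and 10.3% of all genes). In the Myc, Max and Mxd network 1 of 13 was up, the weakly expressed Mycl, and Myc itself was at 0.868. In the Bcl2 family, Bcl2l11 (Bim), which promotes cell death, was up at 2.02 (1.88 to 2.17), and Mcl1, which opposes it, was down at 0.583 (0.572 to 0.594, corrected 0.603). The third member past a cutoff was Bik with 16 and 2 counts.

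Housekeeping lists of short genes had medians below 0 that moved towards 0 with length correction. For the cytosolic ribosomal proteins the median was -0.27 and -0.12 after correction, for the mitochondrial ribosomal proteins -0.21 and -0.10, for the oxidative phosphorylation subunits -0.22 and -0.07, and for the histones -0.29 and -0.10. Few single members passed a cutoff: Mrpl53 and Hist2h3c2, both with at most 77 counts, were up, and Rpl29 (0.471, interval 0.447 to 0.497) and Hist1h2br were down. The lists held 75, 77, 76 and 51 measured members. Rpl29 has many processed copies, so its count may be shared. The proteasome kept more of its shift, with a median of -0.34 (-0.27 corrected), 36 of 38 subunits below 1 and 0 past a cutoff. Translation initiation factors had a median of -0.21 with 1 of 54 up, Eif2s3y of the Y chromosome, and splicing factors had -0.26, with Snrpc down at 0.391 (0.368 to 0.415).

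Most transcripts of the mitochondrial genome went the other way, with 6 of 8 members above 1 and 2 below. Of the 8, 3 were up (37.5%, against 14.1% of all genes), or 6 after correction. With and without correction, 1 was down (12.5%, against 10.3% of all genes without correction). The median was 0.47 (0.68 corrected) against -0.18 in the CD41low CD9low pair. The highest, mt-Nd5, a complex I subunit, went from 5377 to 7303 counts (1.68, interval 1.62 to 1.74). The most abundant, mt-Co1, had 105912 and 114073 counts (1.33, corrected 1.53). Their nuclear-encoded partners showed 0 of 76 past a cutoff.

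Metabolic lists held few genes past a cutoff. Of 25 glycolysis genes, Pgam1 (2.10) and Slc2a1, a glucose transporter (1.60), were up, and Ldhb (0.599, corrected 0.690) and Slc2a3 (0.599) were at the lower cutoff, with a median of -0.18. Cholesterol genes had 0 of 24 past a cutoff and a median of -0.23, compared with 0.38 and 9 of 24 up in the CD41low CD9low pair. Interferon-stimulated genes had 1 of 40 up and 2 down (3 and 0 after correction) with a median of -0.03, and antigen presentation genes 0 of 23 past a cutoff with -0.20 (-0.13 corrected).

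Platelet genes went both ways, with more of them up than down. Of 31 measured megakaryocyte and platelet markers 12 were up (38.7%, against 14.1% of all genes) and 4 down (12.9%, against 10.3%), with the same counts after length correction and a median of 0.36. The summed level was 5175 CPM in WT and 7824 CPM in KO, and every member was detected in both. Plek (pleckstrin), a platelet protein kinase C substrate, went from 24714 to 61425 counts (3.07, interval 3.02 to 3.11), the 298th and then the 69th highest level per length. Itgb3, the partner of CD41 in the fibrinogen receptor, went from 10282 to 27657 (3.32, interval 3.25 to 3.40), and Rap1b, the GTPase that activates integrins, from 28263 to 46958 (2.05).

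Receptors with low counts showed the largest ratios in that list. Clec1b, the podoplanin receptor, went from 353 to 1868 counts (6.53, interval 5.83 to 7.34), and Gp6, the collagen receptor, from 19 to 96 (6.24). Alox12 (3.68), F2rl2 (3.09), Cavin2 (2.56), Trpc6 (1.96), Treml1 (1.76) and Gp1bb (1.73) were also up, and Rab27b was at 1.56 (corrected 1.37). Conversely, Tubb1 (0.208), Cd226 (0.261), Selp (P-selectin, 3243 to 993 counts, 0.378) and Thbs1 (thrombospondin 1, 0.492) were down. Vwf, Pf4 and Mmrn1, stored in platelet granules, stayed at 1.23, 0.889 and 0.995. Whether more cells of this type or more RNA per cell gave these values cannot be told apart in sorted bulk cells. Of 30 members in the CD41low CD9low pair 10 were up and 4 down.

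Integrin subunits were up in 9 cases. Of 23 subunits 9 were up (39.1%, against 14.1% of all genes) and 3 down (13.0%, near the 10.3% of all genes). These counts were the same after correction, and the median was 0.36 (0.27 corrected). In the CD41low CD9low pair 9 were also up and 3 down, of 21 measured, with a median of 0.03. The abundant alpha 4, alpha 6 and beta 1 chains, Itga4 (1.09), Itga6 (1.02) and Itgb1 (0.997), were near 1. Beside Itgb3, Itga8 (3.50), Itgb4 (2.54), Itga2 (2.06), Itgb2 (1.80) and Itgal (1.72) were up, and Itgb6 (0.552) was down. Tetraspanins, which partner with integrins, gave 3 up and 6 down of 23 (13.0% and 26.1%, against 14.1% and 10.3% of all genes). Tspan2 went from 573 to 1692 counts (3.64, interval 3.31 to 4.01), Cd53 was at 2.81 and Cd82 at 1.73, whereas Cd63 (0.546) and Tspan33 (0.538) were down. The CD41low CD9low ratios of Tspan2 and Cd53 were 3.30 and 2.63.

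Genes of TGF-beta and BMP signalling, which holds HSCs quiescent, were up in 7 of 28 cases (6 after correction) and down in 1 (14.1% and 10.3% of all genes were up and down), with a median of 0.28. Ltbp1, which stores latent TGF-beta in the matrix, went from 554 to 3195 counts (7.12, interval 6.5 to 7.80). The receptors Bmpr1a (1.93) and Acvr2a (1.71), the ligase Smurf1 (1.65) and the corepressor Tgif1 (1.75) were up, and Bmpr2 was at 1.58 (corrected 1.26). The ligand Bmp4, with 74 and 9 counts, was down. The receptor Tgfbr2 and the mediators Smad3 and Smad4 stayed at 1.33, 1.10 and 1.25.

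HSC identity genes had a median of 0.07. Of 37 members 6 were up and 2 down, 4 and 3 after correction. The share up, 16.2%, was near the 14.1% of all genes, and the share down, 5.41%, was below their 10.3%. Among all genes with a mean of at least 1000 normalised counts, however, only 6.12% were up and 1.56% down. The list was not matched to other genes for count level. Gata2, a master factor of HSCs, went from 14565 to 23308 counts (1.98, interval 1.93 to 2.02), with 1.95 in the CD41low CD9low pair. Procr and Hoxb4 (1.69) were also up, and Fgd5 (1.56, corrected 1.46) and Runx1 (1.58, corrected 1.39) lay close to the cutoff. The most abundant members, Angpt1 (0.978) and Kit, stayed near 1. Cdkn1c and the imprinted gene Ndn (0.510) were down.

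Among the haematopoietic transcription factors, 6 of 26 were up (3 after correction) and 2 down (1 after correction). The uncorrected shares were 23.1% and 7.69%, against 14.1% and 10.3% of all genes. After correction the share up was lower than the 14.1% of all genes. Gfi1, Gata2 and Irf8 (1.90) remained up after correction, while Runx1, Mef2c (1.61, corrected 1.31) and Nfia (1.56, corrected 1.37) did not. Cebpb, a myeloid factor induced by stimuli, was down at 0.327, and Klf1, the erythroid factor, was at 0.570 (corrected 0.652). Gata1 and Spi1 were at 0.783 and 0.811. Of 27 Hox, Meis and Pbx genes 4 were up and 8 down (14.8% and 29.6%, against 14.1% and 10.3% of all genes). Each of those 8, among them Hoxb9 (52 and 8 counts) and Meis2 (68 and 27), had fewer than 100 counts. The well-expressed Meis1 (1.15) and Hoxa9 (1.40) stayed between the cutoffs, and Hoxa7 (1.58) and Hoxa3 (1.65) were up.

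Of 19 imprinted genes measured, Plagl1 among them, 14 lay below 1, with a median of -0.32 (-0.47 corrected). In all, 8 were down (42.1%) and 3 up (15.8%), against 10.3% and 14.1% of all genes. Some members had few counts, and in the tenth of all genes with the lowest counts 41.4% were down and 33.0% up. Mest went from 202 to 28 counts (0.171, interval 0.111 to 0.255), and the noncoding Meg3 (0.389) and Rian (0.413), which lie in the same domain, were down too. H19, with 37 and 14 counts, was at 0.467. Igf2r, the receptor that clears IGF2, was up at 2.15, and the third was Zdbf2 with 9 and 14 counts. Grb10 and Gnas, the most abundant, stayed at 0.996 and 1.36.

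The study asked about Wnt signalling. Of the 26 genes of the beta-catenin complex 3 were up and 1 down (11.5% and 3.85%, against 14.1% and 10.3% of all genes). After correction 1 was up and 1 down. Ctnnb1, which encodes beta-catenin, had 31467 and 26284 counts (1.03), and the kinase Csnk1a1 was at 1.06. Tcf7l2, a DNA-binding partner of beta-catenin, was up at 2.01 (1.77 to 2.27, corrected 1.82), and the low-count Tcf7l1 was down at 0.480. The long genes Ep300 and Crebbp, acetyltransferases, were at 1.58 and 1.54 (corrected 1.33 and 1.31). Among 18 receptors and Dvl genes, Fzd4 was down (383 to 133 counts, 0.429) and Dvl3 up (1.60), and Lrp6, the most abundant receptor, was at 1.12.

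Non-canonical Wnt genes gave 6 of 32 up (18.8%, against 14.1% of all genes) and 0 down with a median of 0.26. After correction 3 were up, a lower share than the 14.1% of all genes, and the median was 0.15. Ptk7, a polarity co-receptor, stayed up after correction (1446 to 2215 counts, 1.89, interval 1.77 to 2.02, corrected 1.84), as did the rare Celsr3 and Prickle2. The calcium-responsive factors Nfat5 (1.86, corrected 1.48) and Nfatc2 (1.60, corrected 1.40), and Camk2d (1.53, corrected 1.22), did not. The abundant GTPase Cdc42 was at 1.14. None of 31 was up in the CD41low CD9low pair, and 4 were down.

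Of 36 cytokine receptors 4 were up (11.1%) and 5 down (13.9%), against 14.1% and 10.3% of all genes. Csf2rb2, the mouse IL-3-specific beta chain, went from 395 to 1833 counts (5.73, interval 5.13 to 6.40), and its close relative Csf2rb from 1559 to 2485 (1.97). The pair is similar in sequence, so the split between them is uncertain. In the CD41low CD9low libraries the ratio of Csf2rb2 was 0.568 (0.470 to 0.684). Il10ra (2.13) and Ifngr2 (1.66) were up. Il18r1 (484 to 132 counts, 0.337, interval 0.276 to 0.409), Il1r1 (0.414), Il21r (0.462), Il12rb2 (0.508) and Osmr were the 5 down of 36. In the SLAM family Ly9 was up (628 to 1284 counts, 2.52, interval 2.29 to 2.78), and Slamf6 and Slamf7, both with at most 51 counts, were down.

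Prostaglandin and Rgs genes were called in both directions. Of 19 prostaglandin genes 4 were down (3 after correction) and 3 up. These shares were 21.1% down and 15.8% up, against 10.3% and 14.1% of all genes. Beside Ptgs2, Ptges, which makes prostaglandin E2, went from 175 to 30 counts (0.212), and the constitutive Ptgs1 and Tbxas1 stayed at 1.02 and 0.843. Alox12 was up at 3.68 (3.23 to 4.21). Of 10 Rgs genes, which switch off G proteins, Rgs1 (21136 to 8277 counts, 0.483) and Rgs2 (0.486) were down, and Rgs10 (523 to 1099, 2.59) and Rgs3 (1.53, corrected 1.34) were up.

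Among the large gene families, Zfp zinc-finger genes had a median above 0. Of 329 members 48 were up and 7 down, with a median of 0.23 (0.22 corrected), and 244 lay above 1. Their median in the CD41low CD9low pair was 0.09. The share up, 14.6%, was near that of all genes, while the share down, 2.13%, was below the 10.3% of all genes. Zfp37 went from 86 to 416 counts (5.97, interval 4.72 to 7.62), and Zfp57, which guards imprints, from 767 to 1575 (2.53). Zfp36, already described, is also a zinc-finger protein but acts on RNA.

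Most members of the other families lay between the cutoffs. Of 224 solute carriers 36 were up and 23 down (median 0.03), and these shares of 16.1% and 10.3% were close to those of all genes. Their extremes were Slc9a9, a sodium-proton exchanger, the highest among members with at least 100 counts (513 to 2471, 5.95), and Slc6a4, the serotonin transporter, the lowest (151 to 19, 0.155). Trim genes gave 8 up and 1 down of 46 (17.4% and 2.17%, against 14.1% and 10.3% of all genes), with Trim2 at 3.24 (2.58 to 4.10). Of 46 Usp deubiquitinases 2 were up and 2 down, and Usp34, a long gene, was at 2.15 (corrected 1.71). Of 55 Rab GTPases 6 were up and 3 down, with Rab36 highest at 2.09 among members with at least 100 counts. Of 20 DNA methylation and Asxl regulators the long Kmt2a and Kmt2d were up at 1.83 each (corrected 1.46 for both), Asxl3 was down with 22 and 0 counts, and Dnmt1 and Dnmt3a stayed at 0.838 and 1.02.

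**Figure D5:**
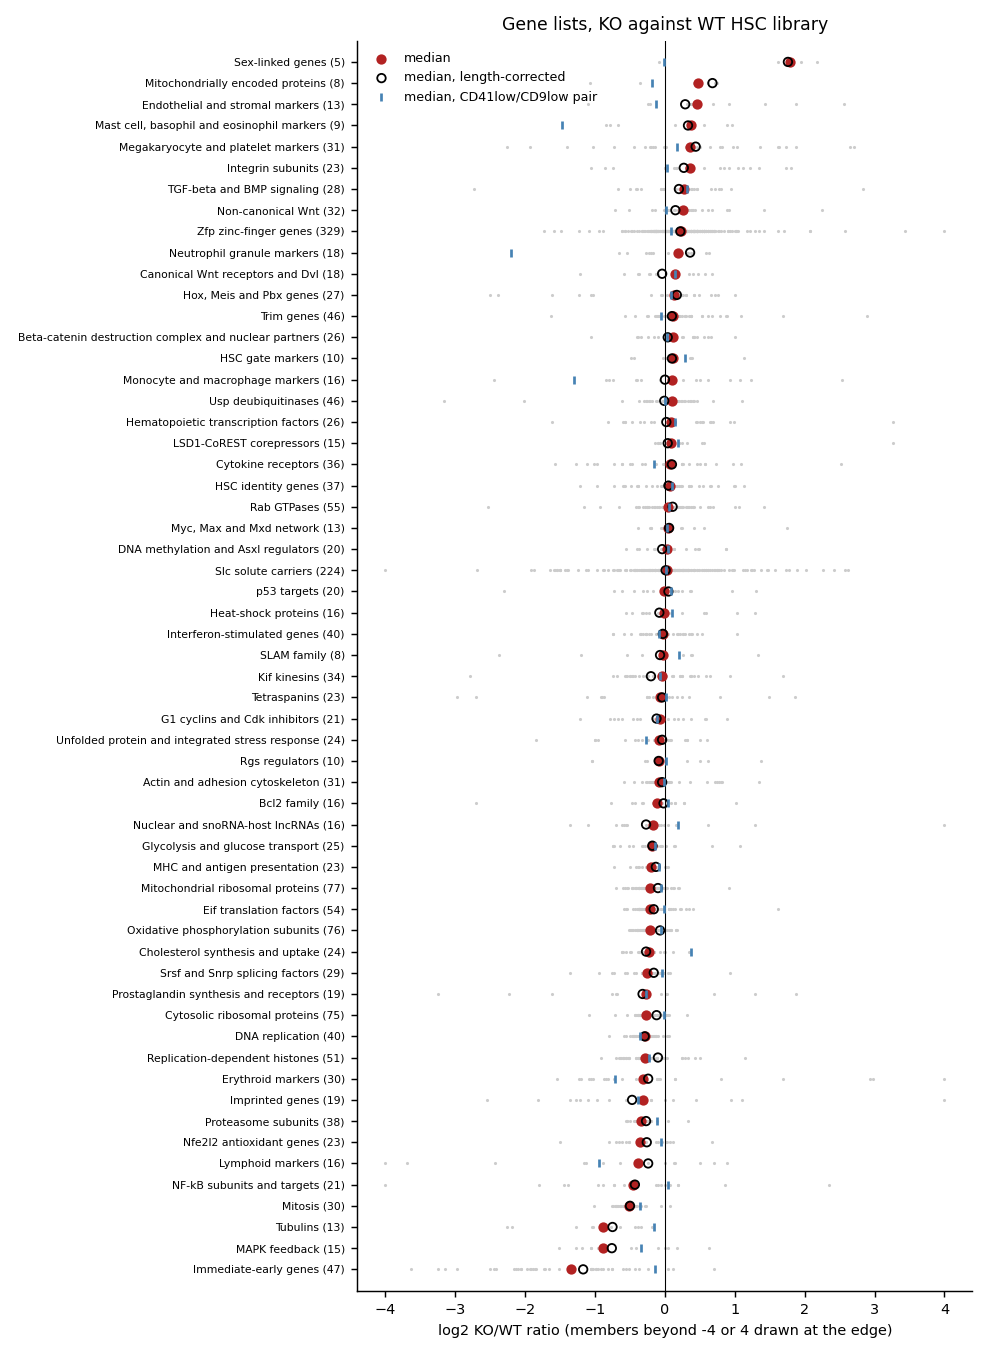
Log2 KO/WT ratio of the members (grey points) and median (red) of 58 gene lists, with the length-corrected median (open) and the median in the CD41low CD9low pair (blue bar), and the number measured stands in brackets. The immediate-early list lies lowest at -1.34, with tubulins and MAPK feedback at -0.89, while platelet markers and integrins lie at 0.36.

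Noncoding transcripts were past the upper cutoff more often than protein-coding ones. Of 334 lincRNAs 33.2% were up and 18.6% down, against 12.0% and 8.70% of 13465 protein-coding genes, though lincRNAs had lower counts. Miat, a nuclear long noncoding RNA, went from 17 to 315 counts (22.9, interval 14.1 to 39.8). Of 16 listed nuclear and snoRNA-host RNAs 3 were up and 2 down. Malat1, the most abundant, had 758789 and 606655 counts (0.987), and Neat1, the paraspeckle RNA, had 85109 and 44903 (0.651, corrected 0.519).

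Transcripts of other blood cells were present in both libraries. Erythroid markers gave 5 up and 9 down of 30 (16.7% and 30.0%, against 14.1% and 10.3% of all genes). Their median was -0.31, and their summed level was 1961 CPM in WT and 1327 CPM in KO. Car2, a carbonic anhydrase and the most counted member, went from 46826 to 18623 counts (0.491, interval 0.483 to 0.499), and Hemgn (0.482) and Rhag (0.344) were down. The globins went the other way from low counts: Hbb-bs went from 106 to 660 (7.68, interval 6.25 to 9.53), Hba-a1 from 43 to 112 and Hba-a2 from 4 to 74. The alpha-globin copies are near-identical, so their split is uncertain.

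Neutrophil granule genes had similar sums in both libraries, 731 CPM in WT and 774 CPM in KO, with 2 of 18 up and 0 down, whereas 17 of 18 were down in the CD41low CD9low pair (1651 CPM and 597 CPM). Mpo, the myeloperoxidase of granulocyte precursors, had 8840 and 10762 counts, just past the upper cutoff, and Elane was at 1.24. Monocyte markers had 94.5 CPM and 117 CPM with 5 up and 4 down of 16 (149 CPM and 72.0 CPM in the other pair), among them Ccr2 up (2.35) and Cd68 down (0.558, corrected 0.625). Mast cell, basophil and eosinophil markers had 189 CPM and 174 CPM with 2 up and 2 down of 9, and Mcpt4 and Tpsb2 were at 0 in both. Endothelial and stromal markers had 218 CPM and 313 CPM with 6 up and 1 down of 13, led by Sparc, a matrix protein also made by megakaryocytes (100 to 479 counts, 5.91, interval 4.76 to 7.41). The part of such cells in the lists above was not tested.

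The lymphoid list had 279 CPM in WT and 268 CPM in KO. Of 16 members 2 were up and 6 down (12.5% and 37.5%, against 14.1% and 10.3% of all genes). Its level came mainly from the antibody genes Ighm (7579 and 6164 counts, 1.0) and Igkc (3069 and 1595, 0.641), while Cd79a, a chain of the B cell receptor, had 34 and 1 counts. Chosen after their values were seen, Igha, the constant region of secreted IgA, had 7110 counts in WT and 508 in KO (0.0882), and Jchain, which joins antibodies for secretion, 3343 and 1114 (0.411). Igha had 0 counts in both CD41low CD9low libraries. These counts show antibody RNA in both HSC libraries. The list sum and Ighm were at similar levels in both, while Igkc, Igha and Jchain were lower in KO.

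The sex-linked genes also differed between the pools. Of 5 listed, the Y-linked Eif2s3y (3.07, interval 2.87 to 3.29), Ddx3y (3.46), Uty (3.85) and Kdm5d (4.51) were up, while Xist was at 0.945 (corrected 0.753). In the CD41low CD9low pair the Y-linked ratios ran from 0.791 to 1.0, and Xist was at 1.82. The methods describe the mice of the study as matched for sex, the sexes in each pool are not given in the sources used here, and the part of this difference in the other values was not tested.

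Set beside the CD41low CD9low pair, the genes called in HSCs overlapped in part. Of the 14144 genes counted in both pairs, 1680 were up in HSCs, and 469 of them were up in both, which is 27.9% of the HSC genes and 27.3% of the 1720 genes of the other pair, compared with 12.2% of all genes up there. Of 975 genes down in HSCs, 346 were down in both, which is 35.5% of these and 22.9% of the 1508 genes down in the other pair, where 10.7% of all genes were down. The opposite directions held for 318 genes up in HSCs (18.9%, against 10.7% of all genes down in the other pair). They also held for 226 genes down in HSCs (23.2%, against 12.2% of all genes up there). Overlap thus exceeded the share of all genes in opposite directions too. In both pairs genes with few counts passed the cutoffs more often than others, and the part of this in the overlaps was not tested. Gfi1b, Gfi1, Gata2, Bcl2l11, Itgb3, Cavin2 and Tspan2 were among those up in both pairs, and Plk2, Nr4a1, Selp, Tubb1 and Thbs1 among those down in both.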

How the data were processed

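RNA from pooled, sorted HSCs was made into libraries with the TruSeq Stranded mRNA kit. Per the submitters' processing notes, TopHat2 2.0.10, SAMtools, HTSeq, DESeq and mm10 were used, and the annotation release counted against is not given in the sources used here. The labels name a MoFlo sorter and the methods a FACSAria. The authors deposited raw, whole-number read counts per gene, 1 file per library, and 0 columns of other samples were present. Each library has 1 value per gene, so replicates could not be compared.

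Size factors were taken as the median of gene-wise ratios to the geometric mean. Genes with at least 10 counts in 1 of the 2 libraries were kept, and ratios above 1.5 were called up and below 0.6 down. Intervals are exact Clopper-Pearson at 95% and cover counting error only. Exon lengths came from GENCODE M21 (GRCm38), and a running median over 500 genes ordered by length was subtracted from the log2 ratio. The 234 genes without a length were left out of that step. GC content was that of annotated transcripts, because no genome was used here. A gene at 0 in 1 library was set at 3 counts for its bound, also in list medians. Python 3.11.15, pandas 2.3.3, scipy 1.17.1, R 4.3.3 and edgeR 4.0.16 (TMM factors only) were used, and the ratio code was tested on simulated data.

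The members and the 58 gene lists were chosen with earlier results of these data known. Genes were named by rule: Gfi1b, Gfi1 and 10 surface markers of HSCs and of the sorts, the 15 up and 15 down protein-coding genes with at least 100 counts that passed the cutoff with and without length correction and whose nearer interval bound lay farthest from 1, and in each list, among members with at least 100 counts, the 2 with the highest mean, the highest ratio and the lowest ratio. All further genes named were chosen after their values were seen. Some members of the lists are counted with their list but not reported here by name. Alternatives were TMM and total-count scaling, filters of 50 counts and of 1 count, a pseudocount of 1, length and GC corrections, other cutoffs and protein-coding genes only.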

Additional observations from a re-analysis of the deposited data

Results flagged for a closer look

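Among the genes named by rule, 5 had a 95% counting interval of the KO/WT ratio that lay wholly above 1.5 in HSCs and wholly below 0.6 in the CD41low CD9low pair. Hbb-bs, a beta-globin, had 7.68 in HSCs and 0.0119 in the other pair, and Prss34, a basophil protease, had 1.95 and 0.00251, where 266 counts in WT stood against 1 in KO. Ccr2, a chemokine receptor of monocytes, had 2.35 and 0.338, Irf8, a factor of monocyte and dendritic cell development, 1.90 and 0.412, and Rgs10, an inhibitor of G protein signalling, 2.59 and 0.298. The differences between the pairs were not tested, since each ratio rests on 1 library per genotype.

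Reads assigned to no gene, which no comparison used, stood at 105 for every 100 gene counts in the KO HSC library and at 80.0 in the WT HSC library, against 62.0 and 60.1 in the CD41low CD9low WT and KO libraries. Their part in the ratios was not tested.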

How the results depend on the processing

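No paired analysis was possible because each genotype had 1 library and the ratios come from no test. The count of genes called depended on the filter: at least 50 counts gave 1431 up and 792 down, and a filter of only 1 count, which admits genes with 1 count against 0, gave 4354 up and 2649 down. Cutoffs of 2 and 0.5 gave 1187 up and 1166 down. Under the other settings the counts stayed within 1.5 times those reported, from 1613 to 2248 up and from 1172 to 2028 down. Of 406 list medians recomputed, 390 stayed within the 95% interval of the reported median over the list's members. That interval reflects the spread of the members and is wide for small or mixed lists. Staying within it therefore does not show that a median was unaffected. A change of sign was seen for 12 medians in 8 lists, among them the canonical Wnt receptors (0.15 to -0.04 with length correction) and the lymphoid markers (-0.39 to 0.01 with at least 50 counts). The 16 that moved did so under the length correction, alone or with GC: the MHC list went from -0.20 to -0.13 and -0.11, the proteasome from -0.34 to -0.27 and -0.26, the cytosolic ribosomal proteins from -0.27 to -0.12 under both, the mitochondrial ribosomal proteins from -0.21 to -0.10 and -0.11, oxidative phosphorylation from -0.22 to -0.07 under both, histones from -0.29 to -0.10 and -0.09, Usp genes from 0.10 to -0.01 and 0.00, and neutrophil genes from 0.18 to 0.36 and 0.38. Of 1708 recomputed ratios of the 244 named genes, 25 crossed a cutoff, and 0 of the called ones changed sign. The absence of sign changes carries no weight. The filters leave a ratio as it is, and the other settings shift it by less than the distance of a cutoff from 1. Low counts limit single genes: the interval held 1 for 4886 of the 15910 genes.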

Other observations

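The genes that were absent from 1 HSC library and well counted in the other were mostly antibody variable genes, which were chosen after their values were seen. Of 25 genes with 0 counts in 1 library and at least 50 in the other, 18 were immunoglobulin V genes, 10 of them at 0 in WT and 8 at 0 in KO. Of 32 such V genes measured, only 9 had counts in both libraries. Ighv7-1 had 979 counts in WT and 0 in KO, Igkv2-112 had 765 and 0, and Igkv16-104 had 625 and 0. In the other direction, Igkv11-106 had 0 and 372 counts and Igkv9-120 had 0 and 239. The V genes summed to 6026 counts in WT and 3028 in KO, against 2 counts in each CD41low CD9low library. The 2 pools thus carried antibody RNA with largely different V genes. The remaining genes of that group were Prrt4, Cdhr1, Pi15, Postn, Alpk2 and AI593442 at 0 in WT, and Aoc3 at 0 in KO.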
